A study of Homo sapiens with 52 samples.

Results

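The genes described here are 8 secreted cytokines and 1 receptor subunit of inflammatory signalling: IL6, IL11 and LIF of the IL-6 family, their shared receptor subunit IL6ST, the IL-1 family members IL1A and IL1B, and IL24, CSF2 and CSF3. They were taken by gene name from the gene-level count and TPM tables, and all 9 were found among the 78894 genes listed. RNA was measured by poly(A) RNA sequencing in 3 human breast cancer cell lines of the claudin-low type, SUM159PT, MDA-MB-231 and HS578T, after knockdown of NRP1, which encodes the co-receptor neuropilin-1. The 52 samples fall into 18 groups, 6 treatments in each cell line. Cells were transfected for 72 hr with siRNA at 20 nM, either non-targeting (siNT), siNRP1#3 or siNRP1#5, or carried a lentiviral non-targeting shRNA (shNT), shNRP1#3 or shNRP1#5 after puromycin selection and were harvested 48 hr after seeding. The #3 sequences target only the transmembrane form of NRP1, whereas the #5 sequences target the transmembrane and the soluble forms. siNRP1#5 and shNRP1#5 share a sequence, whereas siNRP1#3 and shNRP1#3 have different ones. Each group had 3 samples, except SUM159PT siNRP1#5 (replicates 2 and 3) and HS578T shNRP1#3, which had 2. The study calls its replicates biological: those of the shRNAs were consecutive passages of the transduced cells, and how the siRNA replicates were separated is not given in the sources used here, so p-values measure only the spread between these samples, which may be technical.

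IL-6, IL-11 and LIF signal through gp130, the product of IL6ST, together with a ligand-specific partner (IL6R, IL11RA or LIFR), and activate JAK kinases and STAT3. IL-1 alpha and IL-1 beta bind IL1R1 and activate NF-kB through MYD88 and IRAK kinases, and caspase-1 releases mature IL-1 beta. IL-24 belongs to the IL-10 family and signals through receptors that contain IL20RA, IL20RB or IL22RA1, while GM-CSF (CSF2) and G-CSF (CSF3) are growth factors of myeloid cells. Tumour cells are known to secrete several of these proteins, and transcription of IL6, IL1B, CSF2 and CSF3 is known to be induced by NF-kB, AP-1 and C/EBP factors. Their transcripts are known to be short-lived.

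IL1A and IL1B lie 45257 bases apart on chromosome 2 (GRCh38; IL1A chr2:112773925-112784493, IL1B chr2:112829751-112836816, both on the minus strand). IL6 is at chr7:22725884-22732002 on the plus strand, IL11 at chr19:55364382-55370463 and LIF at chr22:30240453-30246759 on the minus strand, and IL6ST at chr5:55935095-55995022 on the minus strand. IL24 (chr1:206897443-206904139), CSF2 (chr5:132073789-132076170) and CSF3 (chr17:40015361-40017813) are on the plus strand. The promoters below are shown because IL6, IL11, IL1A and IL1B are the cytokine genes the results turn on whose printed stretch holds a match to 1 of 3 motifs of the factors named above, searched on both strands in the 250 bases before the start: AP-1 as TGANTCA, C/EBP as TTGCNNAA, and the NF-kB motif. Sequences are from RefSeq (GRCh38.p14), 5′ to 3′ on the gene's strand, each the longest stretch of the 250 bases that holds no annotated exon. Capitals mark the motif matches.
IL6, chr7:22726950-22727146: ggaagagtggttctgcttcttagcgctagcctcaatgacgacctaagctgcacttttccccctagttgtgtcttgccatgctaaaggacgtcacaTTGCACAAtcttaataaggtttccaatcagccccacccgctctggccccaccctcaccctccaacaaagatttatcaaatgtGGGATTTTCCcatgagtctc
IL11, chr19:55370464-55370713: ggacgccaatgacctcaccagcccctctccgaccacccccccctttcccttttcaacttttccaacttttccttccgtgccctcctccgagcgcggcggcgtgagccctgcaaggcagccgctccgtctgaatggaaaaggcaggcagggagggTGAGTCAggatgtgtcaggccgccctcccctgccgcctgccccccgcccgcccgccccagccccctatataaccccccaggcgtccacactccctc
IL1A, chr2:112784494-112784743: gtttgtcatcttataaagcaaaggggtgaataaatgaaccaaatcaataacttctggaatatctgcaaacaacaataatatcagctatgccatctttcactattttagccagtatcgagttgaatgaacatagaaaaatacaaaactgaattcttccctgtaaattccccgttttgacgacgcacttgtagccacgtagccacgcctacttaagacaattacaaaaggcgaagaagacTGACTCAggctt
IL1B, chr2:112836817-112837029: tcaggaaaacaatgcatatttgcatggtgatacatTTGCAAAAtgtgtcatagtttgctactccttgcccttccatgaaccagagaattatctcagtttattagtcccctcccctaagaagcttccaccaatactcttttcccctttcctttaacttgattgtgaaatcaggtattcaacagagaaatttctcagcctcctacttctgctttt
The IL6 stretch held a C/EBP match, 155 to 148 bases before the start, and an NF-kB match, 73 to 64 bases before it. The capitals in IL11 and IL1A mark an AP-1 match, and those in IL1B a C/EBP match. Of 35116 promoters of the same length, 6.57% held the AP-1 motif, 9.05% the C/EBP motif and 9.96% the NF-kB motif. A promoter entry was matched for 7 of the 9 genes, and each motif was found in 2 of these 7. IL24 and CSF2 had no match in this window, and IL6ST held an NF-kB match only outside the exon-free stretch, which is not printed. LIF and CSF3 are named only. These matches are a description of letters, not of bound factors.

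Depth ranged from 25310443 to 72003442 expected counts per sample. NRP1 was lower than the non-targeting control in all 12 knockdown contrasts, by 0.70 to 4.88 on the log2 scale, and passed the test in all but HS578T shNRP1#3 (log2 fold change -1.59, edgeR adjusted p = 0.069). Of these NRP1 calls, 4 were lost under an alternative. With limma on TPM, MDA-MB-231 siNRP1#3 stood at log2 -0.02 (adjusted p = 0.965), HS578T siNRP1#3 at -0.53 (0.38) and SUM159PT shNRP1#3 at -1.09 (0.228). SUM159PT shNRP1#3 was also lost in 5 of 6 fits without a sample (adjusted p 0.0507 to 0.15), HS578T siNRP1#3 without its replicate 1 (0.0683) and after subtraction of other lines' RNA (0.595), and HS578T shNRP1#5 in a fit of the 2 compared groups alone (0.0595) and after subtraction (0.347). VIM was at 1311 TPM or more in every sample. In MDA-MB-231, however, the epithelial genes CLDN4 (62.6 to 226 TPM), CLDN7 (10.4 to 61.5 TPM), EPCAM (17.6 to 35.2 TPM) and KRT19 were expressed. The claudin-low label names or implies these genes as low. Other genes of the label went with it in this line, with CDH1 at 0.02 to 3.33 TPM and ZEB1 at 5.24 to 19.7 TPM. CLDN3 was at 2.87 to 13.4 TPM. Of the immune and endothelial markers PTPRC, CD3E, CD14, PECAM1 and VWF, the summed level was 0.47 to 32.95 TPM, with CD3E at 0.07 TPM or less. In SUM159PT the others were not all low, with PTPRC at 0.47 to 13.1 TPM, CD14 at 0.74 to 23.1 TPM and PECAM1 at 2.52 to 15.9 TPM, and their part in the results was not tested. HS578T siNRP1#5 stood apart: 10 marker genes of MDA-MB-231 that HS578T controls lack reached 12.7% to 19.9% of the level of that line in its 3 samples, against 0.592% to 1.36% in HS578T siNT. In HS578T siNRP1#3 this level was 1.66%, 2.79% and 5.24%. These values are repeated beside the HS578T results.

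IL6 covered a wide range and was lowest in the HS578T controls. In SUM159PT siNT it was at 756.5, 1926 and 303 TPM in the 3 samples, the highest group mean of all. MDA-MB-231 siNT had 359, 264 and 339.8 TPM, and HS578T siNT 8.18, 5.46 and 8.92 TPM. HS578T lay below both other lines, and the SUM159PT and MDA-MB-231 samples overlapped. In shNT samples the levels were 60.9, 46.6 and 30.9 TPM in SUM159PT and 33.7, 19.9 and 20.6 TPM in MDA-MB-231. HS578T shNT had 4.11, 5.87 and 6.15 TPM. HS578T was again below both other lines, which overlapped, and its shNT range reached into its siNT range.

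IL11, a gp130 ligand linked to fibrosis and bone metastasis, showed another order. It was at 53.8, 56.1 and 38.7 TPM in MDA-MB-231 siNT and 19.8, 21.9 and 24.6 TPM in HS578T siNT. SUM159PT siNT held only 0.43, 0.77 and 0.37 TPM. The highest group was HS578T siNRP1#3 with 131, 67.2 and 145 TPM, and the lowest SUM159PT shNRP1#3. LIF, another gp130 ligand, was highest in MDA-MB-231 siNT (69.7, 66.5 and 63.8 TPM) and lower in HS578T siNT (12.9, 13.3 and 16.8 TPM). SUM159PT siNT was uneven for LIF, at 4.16, 37.7 and 1.79 TPM, a single sample lying far above the other 2. IL6ST, the receptor subunit, was present in every sample and varied least over the group means: the highest was 11.1 times the lowest, and neighbouring groups in the order overlapped in all 17 pairs. Its level was 50.2, 31 and 25.1 TPM in MDA-MB-231 siNT and 154, 19.7 and 93.4 TPM in SUM159PT siNT. HS578T siNT was lowest with 13.2, 8.1 and 2.68 TPM.

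Both IL-1 genes were expressed in SUM159PT and MDA-MB-231 and were near 0 in HS578T controls. IL1A stood at 39.9, 16.3 and 7.63 TPM in SUM159PT siNT and 47, 15.2 and 33.5 TPM in MDA-MB-231 siNT. HS578T siNT held 0.22, 0.11 and 0.39 TPM. For IL1B the siNT values were 26.5, 57.3 and 8.1 TPM in SUM159PT, and 25.8, 12.6 and 42 TPM in MDA-MB-231. HS578T siNT had 0.52, 0.48 and 0.83 TPM of IL1B. The highest group of both genes was MDA-MB-231 siNRP1#3, at 46.6, 36.3 and 47.2 TPM for IL1A and 86.9, 58.6 and 127 TPM for IL1B.

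IL24, known as an inducer of apoptosis in tumour cells, was highest in MDA-MB-231 siNRP1#5 (55.9, 33.9 and 67 TPM). The siNT levels were 23, 13.6 and 18.9 TPM in MDA-MB-231 and 4.82, 24.8 and 1.38 TPM in SUM159PT. HS578T siNT had 1.73, 1.36 and 0.85 TPM. CSF2 reached 319, 167 and 277 TPM in MDA-MB-231 siNT and 65.1, 176 and 47.9 TPM in SUM159PT siNT, and was at 0.82, 0.62 and 1.89 TPM in HS578T siNT. CSF3 had the widest spread within a group of these 9 genes. SUM159PT siNT held 21.5, 143 and 1.48 TPM, a 96.4-fold range within 1 group, and MDA-MB-231 siNT 32.9, 14.4 and 23.8 TPM. It was listed at 0 in all 8 HS578T shRNA samples. The SUM159PT siNT samples moved together: replicate 2 was the highest of the 3 for 7 of the 9 genes and replicate 3 the lowest for 8. In SUM159PT siNRP1#5, replicate 2 was the higher for 8 of 9.

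In the order of the 18 group means, most neighbouring groups overlapped in their samples. Of 17 neighbouring pairs, 14 overlapped for IL6, 14 for IL11, 16 for LIF, 15 for IL1A, 16 for IL1B, 13 for IL24, 16 for CSF2 and 15 for CSF3. The pairs apart for IL6 were SUM159PT siNRP1#3 over MDA-MB-231 siNT, MDA-MB-231 siNT over its siNRP1#3, and MDA-MB-231 shNT over its shNRP1#5.

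**Figure D1:**
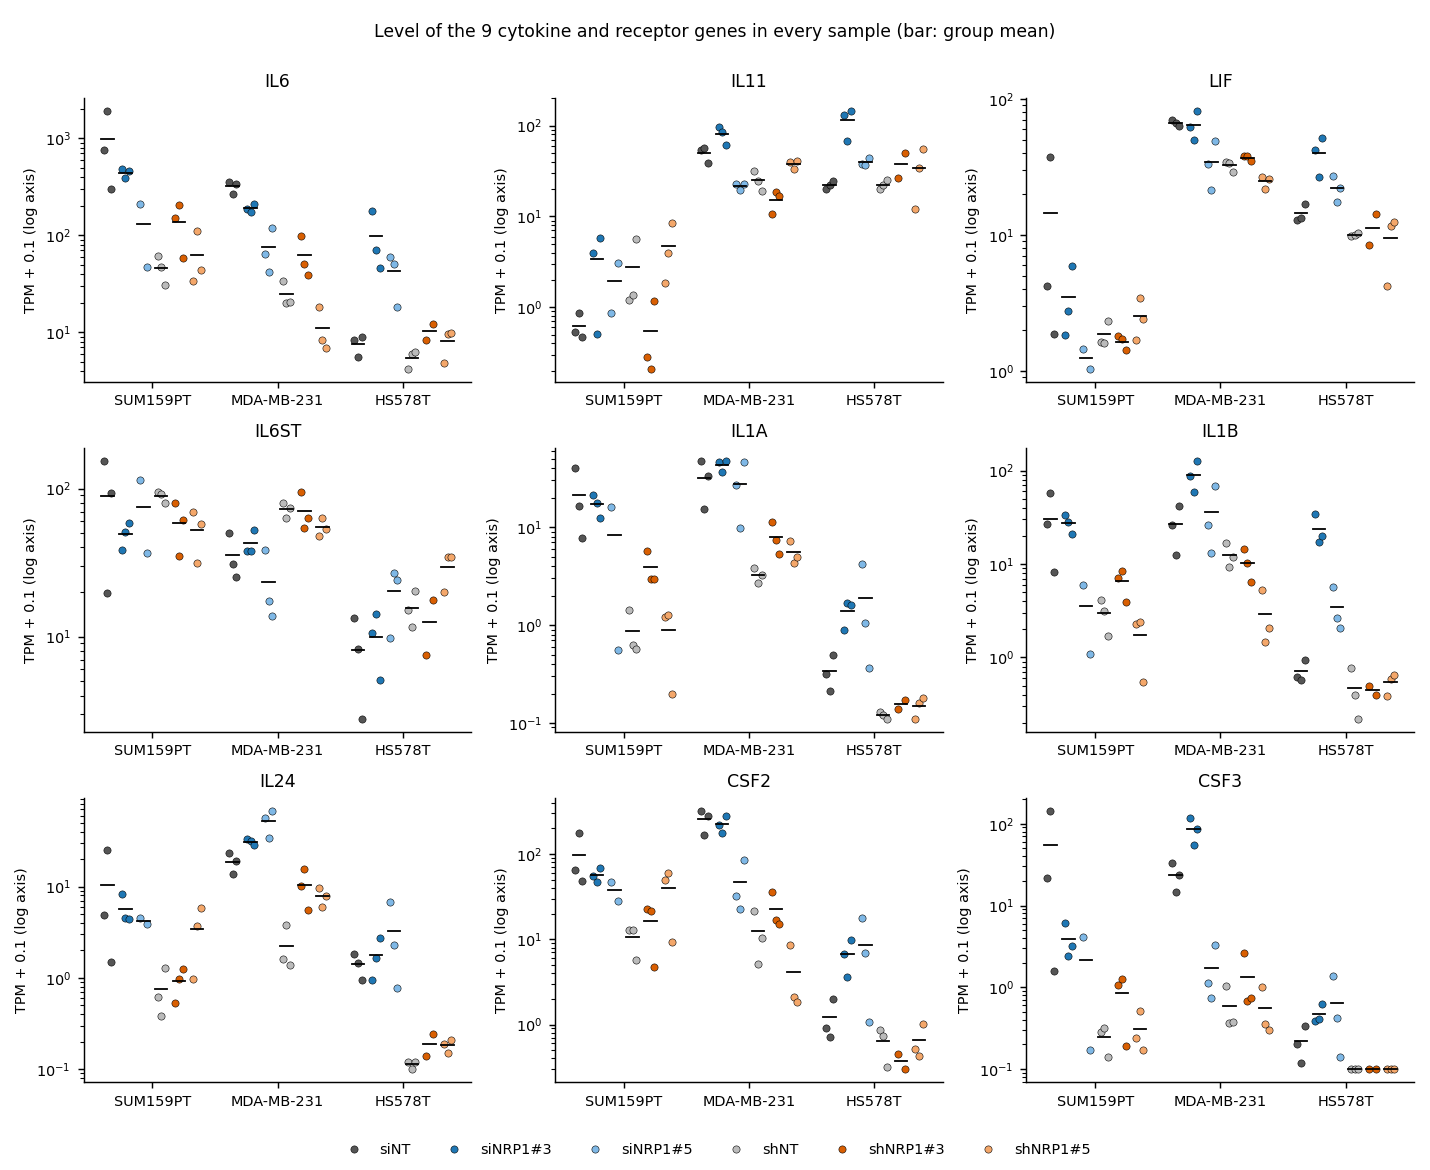
Level of each gene in every sample, as TPM + 0.1 on a log axis, with 1 point per sample, the 6 treatments of each cell line side by side in colour and a bar at the group mean. IL6 was lowest in HS578T controls and IL11 lowest in SUM159PT, while IL6ST varied least. CSF3 lay at the bottom of the axis, at 0 TPM, in all HS578T shRNA samples.

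How far do the cell lines differ in these genes without NRP1 knockdown? The mean of siNT and shNT was compared between lines in a fit of all 52 samples, with p-values from edgeR's quasi-likelihood test, adjusted by Benjamini-Hochberg over all genes tested. HS578T was lower than MDA-MB-231 in 8 of the 9 genes, where 70.2% of all genes tested passed in either direction. The differences were log2 -7.37 for CSF3, -6.28 for IL1A and -5.35 for CSF2. IL24, IL1B and IL6 followed with -4.74, -4.47 and -3.02. LIF (-1.14) and IL6ST (-1.31) differed less. IL11 did not pass (log2 0.04, SE 0.43, edgeR adjusted p = 0.954). Against SUM159PT, HS578T passed for all 9 genes (background 63.5%): IL11 (log2 4.55, SE 0.52, edgeR adjusted p = 1.11e-09) and LIF (log2 1.65) were higher in HS578T, and the other 7 were lower, IL6 by 4.74 and IL6ST by 2.56. SUM159PT and MDA-MB-231 differed in 4 of 9 (background 59.4%). IL6 was higher in SUM159PT (log2 1.71, SE 0.42, edgeR adjusted p = 0.000604), as was IL6ST (log2 1.25), whose call was lost with limma on TPM (log2 0.62, adjusted p = 0.152). IL11 (log2 -4.50, SE 0.51, edgeR adjusted p = 1.28e-09) and LIF (log2 -2.79) were lower. With a majority of all genes past the threshold in each pair of lines, the counts of 8, 9 and 4 say little about these genes in particular.

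The non-targeting controls of the 2 deliveries were not alike. In SUM159PT and MDA-MB-231, 7 of the 9 genes were lower in shNT than in siNT, among them IL6, IL1A, LIF, IL24, CSF2 and CSF3 in both lines. The siRNA transfection, the lentiviral vector, puromycin and the time of harvest differ together between these groups and cannot be told apart, nor can fewer expressing cells and less RNA per cell.

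In MDA-MB-231, 20.6% of all genes tested passed between shNT and siNT. IL6 was at 33.7, 19.9 and 20.6 TPM against 359, 264 and 339.8 TPM (log2 fold change -3.97, SE 0.46, edgeR adjusted p = 5.66e-05), and the groups did not overlap. CSF2 had 21.4, 5.02 and 10.3 TPM against 319, 167 and 277 TPM (log2 fold change -4.55, SE 0.75, edgeR adjusted p = 0.00106). CSF3 fell furthest, from 32.9, 14.4 and 23.8 TPM to 0.94, 0.27 and 0.28 TPM (log2 fold change -5.76, SE 0.73, edgeR adjusted p = 0.000123). IL1A (3.74, 2.56 and 3.16 TPM, log2 fold change -3.50, SE 0.52) and IL24 (1.5, 3.66 and 1.28 TPM, log2 fold change -3.23, SE 0.45) were also lower. LIF (-1.38, SE 0.20) and IL11 (-1.14, SE 0.19) fell less on the log2 scale. IL1B (log2 fold change -1.28, SE 0.64, edgeR adjusted p = 0.18) and IL6ST (log2 fold change 0.50, SE 0.23, edgeR adjusted p = 0.134) did not pass. All 7 calls held when each sample was left out in turn.

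In SUM159PT, 14.4% of all genes passed. IL6 went from 756.5, 1926 and 303 TPM in siNT to 60.9, 46.6 and 30.9 TPM in shNT (log2 fold change -4.70, SE 0.82, edgeR adjusted p = 0.00453). IL1A was at 1.33, 0.52 and 0.47 TPM in shNT (log2 fold change -4.95, SE 1.08, edgeR adjusted p = 0.0112) and IL1B at 4.05, 3.07 and 1.59 TPM (log2 fold change -3.67, SE 0.83, edgeR adjusted p = 0.012). No shNT sample reached the lowest siNT sample for these 3 genes. IL24 (0.52, 0.28 and 1.18 TPM) had log2 fold change -4.23, SE 0.98, edgeR adjusted p = 0.0139. CSF2 (12.7, 12.9 and 5.68 TPM) had log2 fold change -3.50, SE 0.75, edgeR adjusted p = 0.00994. CSF3 (0.18, 0.22 and 0.04 TPM) had log2 fold change -9.05, SE 1.78, edgeR adjusted p = 0.00737. LIF overlapped between the groups, at 1.55, 1.5 and 2.23 TPM in shNT, and its call (log2 fold change -3.63, SE 0.87, edgeR adjusted p = 0.0153) shrank to log2 -1.02 (adjusted p = 0.135) without siNT replicate 2. Without the same sample IL24 stood at log2 -2.13 (adjusted p = 0.0737). Leaving out shNT replicate 3 ended every call but that of IL6 (adjusted p = 0.0518 for CSF3, 0.0538 for IL24, 0.0618 for CSF2, 0.066 for IL1A, 0.0702 for IL1B and 0.0724 for LIF). Leaving out shNT replicate 1 ended those of LIF (adjusted p = 0.0588) and IL24 (0.0547). IL11 (log2 fold change 1.85, SE 0.99, edgeR adjusted p = 0.209) and IL6ST (log2 fold change -0.41, SE 0.47) did not pass.

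In HS578T, 17.9% of all genes passed and 2 of the 9 genes did, a count near that share. Both were lower in shNT and near 0 counts there. IL24 had 199 counts over the 3 siNT samples and 2 over the 3 shNT samples, a ratio per depth of 113 (95% exact counting interval 30.8 to 938, edgeR adjusted p = 0.00091). For IL1A the sums were 46 and 5 counts, a ratio of 10.4 (4.16 to 33.6, edgeR adjusted p = 0.0302). CSF3 had 10 counts over siNT and 0 over shNT. With 3 counts over the group as the limit that a count of 0 allows, the siNT sum was 3.78 times that limit per depth. This value leaves out the counting error of the 10 counts and is no lower bound. The part of MDA-MB-231 RNA in these CSF3 counts was not tested, with its markers at 0.592% to 1.36% in HS578T siNT. The intervals of IL24 and IL1A cover counting error only. The IL1A call was kept in 1 of the 6 fits without a sample (without siNT replicate 2; adjusted p 0.0543 to 0.107 in the others) and was lost after subtraction of other cell lines' RNA (log2 -1.37, adjusted p = 0.592) and with limma (log2 -0.49, adjusted p = 0.467). IL6 (log2 fold change -0.45, SE 0.44, edgeR adjusted p = 0.495) and LIF (log2 fold change -0.67, SE 0.33, edgeR adjusted p = 0.169) did not pass in HS578T, and IL11 was at 19.8, 21.9 and 24.6 TPM in siNT and 19.9, 22 and 24.9 TPM in shNT.

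**Figure D2:**
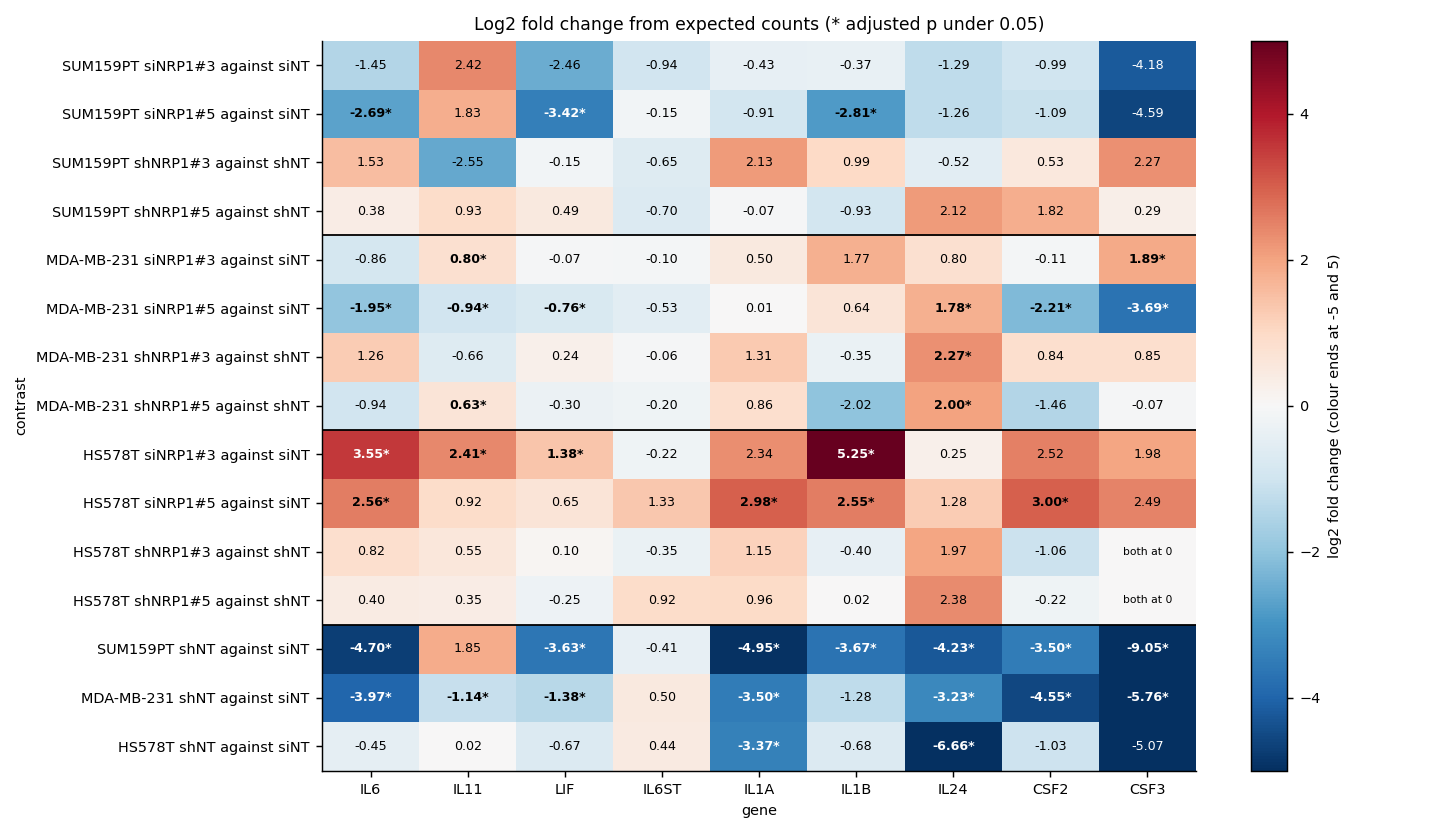
Log2 fold change of each gene (columns) in the 12 knockdown contrasts and the 3 contrasts of shNT against siNT (rows), with the value in each cell, colour from -5 (blue) to 5 (red) and an asterisk where the adjusted p was under 0.05. The values are mostly negative in SUM159PT and MDA-MB-231 siNRP1#5, mostly positive in HS578T siRNA contrasts and mostly negative in the shNT rows of SUM159PT and MDA-MB-231.

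In MDA-MB-231, 5 of the 9 genes were lower and 1 was higher with siNRP1#5, which targets transmembrane and soluble NRP1. IL6, CSF2, CSF3, IL11 and LIF fell and IL24 rose in siNRP1#5, where 29.4% of all genes tested passed. IL6 was at 63.5, 41.4 and 120.4 TPM against 359, 264 and 339.8 TPM in siNT (log2 fold change -1.95, SE 0.42, edgeR adjusted p = 0.00302). CSF3, the neutrophil growth factor, went from 32.9, 14.4 and 23.8 TPM to 1.02, 0.64 and 3.2 TPM (log2 fold change -3.69, SE 0.64, edgeR adjusted p = 0.00067). The groups did not overlap for either gene. IL11 had 22.5, 19.3 and 22.5 TPM against 53.8, 56.1 and 38.7 TPM (log2 fold change -0.94, SE 0.19, edgeR adjusted p = 0.00106), again with no overlap. IL24, in contrast, rose from 23, 13.6 and 18.9 TPM to 55.9, 33.9 and 67 TPM (log2 fold change 1.78, SE 0.41, edgeR adjusted p = 0.00433), and every knockdown sample lay above every control. These 4 calls held without any single sample. CSF2 was at 32.1, 22.3 and 84.7 TPM (log2 fold change -2.21, SE 0.67, edgeR adjusted p = 0.0248), below every control sample, but its call was lost without siNRP1#5 replicate 1 (adjusted p = 0.0725) or 2 (0.0848) and without siNT replicate 1 (0.0697) or 3 (0.0534). LIF (33.1, 21.2 and 49 TPM) had log2 fold change -0.76, SE 0.20, edgeR adjusted p = 0.0075, and adjusted p = 0.0524 without siNRP1#5 replicate 1 and 0.0853 in a fit of the 2 compared groups alone.

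The 2 IL-1 genes did not pass in this contrast. IL1A (26.8, 9.7 and 45.7 TPM) had a log2 fold change of 0.01 (SE 0.46) and IL1B (26.2, 12.9 and 68.5 TPM) of 0.64 (SE 0.63), and both groups overlapped siNT. Replicate 3 was the highest of the siNRP1#5 samples for 7 of the 9 genes. IL6ST, at 38.6, 17.3 and 13.7 TPM, did not pass (log2 fold change -0.53, SE 0.23, edgeR adjusted p = 0.0971). The replicate numbers pair the samples in this contrast, and with the replicate as a block IL6ST passed (log2 -0.55, adjusted p = 0.0488).

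With siNRP1#3, which spares soluble NRP1, 2 of the 9 genes were higher and none lower in MDA-MB-231 (background 25.7%). That count is near the background and says little about these genes in particular. CSF3 rose from 32.9, 14.4 and 23.8 TPM to 118, 55.2 and 85.5 TPM (log2 fold change 1.89, SE 0.56, edgeR adjusted p = 0.0239), with no overlap. This call was lost without siNRP1#3 replicate 1 (adjusted p = 0.103), siNT replicate 2 (0.0925) or siNT replicate 3 (0.063). IL11 was at 96.3, 83.9 and 61.3 TPM, above all siNT samples (log2 fold change 0.80, SE 0.19, edgeR adjusted p = 0.0045), and passed in all 6 fits without a sample. IL1B was likewise above every siNT sample, at 86.9, 58.6 and 127 TPM against 25.8, 12.6 and 42 TPM, but did not pass (log2 fold change 1.77, SE 0.64, edgeR adjusted p = 0.0598). IL6 (187, 175 and 211 TPM) lay below every siNT sample and did not pass either (log2 fold change -0.86, SE 0.41, edgeR adjusted p = 0.144). CSF2, LIF and IL1A had log2 fold changes of -0.11 (SE 0.64), -0.07 (SE 0.20) and 0.50 (SE 0.46).

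In MDA-MB-231, 1 of the 9 genes passed with shNRP1#3 and 2 with shNRP1#5. IL24 rose with both. It was at 10.1, 15.6 and 5.42 TPM in shNRP1#3 (log2 fold change 2.27, SE 0.45, edgeR adjusted p = 0.00916) and 9.55, 5.81 and 7.69 TPM in shNRP1#5 (log2 fold change 2.00, SE 0.44, edgeR adjusted p = 0.00544), against 1.5, 3.66 and 1.28 TPM in shNT. All knockdown samples were above all controls, and both contrasts share these 3 shNT samples. IL24 was the 1 gene called in shNRP1#3 (background 3.65%), with adjusted p = 0.0509 without shNT replicate 3 and 0.122 in a fit of the 2 compared groups alone. For shNRP1#5 the background was 20.7%, near the share of 2 in 9 genes. A fit of the 2 compared groups alone called 5 of the 9 genes there, and 6823 of all 17806 genes tested. IL11 also rose in shNRP1#5, from 31.3, 24.3 and 18.9 TPM to 39.5, 33.6 and 41 TPM (log2 fold change 0.63, SE 0.19, edgeR adjusted p = 0.0248). Its call was lost without shNRP1#5 replicate 1 (adjusted p = 0.0701) or 3 (0.0809), without shNT replicate 2 (0.0798) or 3 (0.143), and with limma on TPM (0.0544). IL1B was at 5.19, 1.36 and 1.96 TPM against 16.8, 9.09 and 11.7 TPM, below every control, and missed the threshold (log2 fold change -2.02, SE 0.68, edgeR adjusted p = 0.0509). IL6 stood at 18.2, 8.21 and 6.78 TPM in shNRP1#5, below every shNT sample (log2 fold change -0.94, SE 0.43, edgeR adjusted p = 0.137). In shNRP1#3 it was at 97.4, 51.2 and 38.6 TPM, above every shNT sample (log2 fold change 1.26, SE 0.42, edgeR adjusted p = 0.13), and neither contrast passed. In MDA-MB-231 shNRP1#3, marker genes of SUM159PT and HS578T reached 2.28% and 1.95% of their level in those lines in replicate 3, and IL24 was log2 2.29 (adjusted p = 0.00765) after their subtraction.

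In SUM159PT, 3 of the 9 genes fell with siNRP1#5 (background 17.9%): IL6, IL1B and LIF. IL6 was at 212 and 47 TPM in the 2 knockdown samples, below all 3 of siNT (log2 fold change -2.69, SE 0.88, edgeR adjusted p = 0.0457). IL1B had 5.85 and 1.0 TPM against 26.5, 57.3 and 8.1 TPM (log2 fold change -2.81, SE 0.93, edgeR adjusted p = 0.0481), and LIF 1.36 and 0.94 TPM against 4.16, 37.7 and 1.79 TPM (log2 fold change -3.42, SE 1.02, edgeR adjusted p = 0.0299). No knockdown sample reached the control range for these genes. The calls rested on few samples. Without siNT replicate 2, IL6 was log2 -1.60 (adjusted p = 0.162), IL1B -1.82 (0.16) and LIF -0.81 (0.259). Without siNRP1#5 replicate 3, none of the 3 passed (adjusted p = 0.22, 0.224 and 0.159), nor did they in a fit of the 2 compared groups alone (adjusted p = 0.169, 0.185 and 0.19). IL6 (0.0595) and IL1B (0.0721) also missed it without siNT replicate 1, LIF without siNRP1#5 replicate 2 (0.0828) and with limma on TPM (0.0725).

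CSF3 spread widely in both groups, at 4.02 and 0.07 TPM against 21.5, 143 and 1.48 TPM, and did not pass (log2 fold change -4.59, SE 1.66, edgeR adjusted p = 0.0679). IL1A, at 15.9 and 0.46 TPM, differed 34.6-fold between its 2 samples. With siNRP1#3 (background 8.66%) edgeR called none of the 9, DESeq2 called 2 (and 2678 of 19271 genes) and limma none. By edgeR 3 had an unadjusted p under 0.05, as did 4938 of all 20067 genes tested. LIF was at 1.74, 2.69 and 5.78 TPM (log2 fold change -2.46, SE 0.82, edgeR adjusted p = 0.0738), and CSF3 at 5.98, 2.31 and 3.14 TPM (log2 fold change -4.18, SE 1.36, edgeR adjusted p = 0.0681). IL6, at 482, 392 and 460.1 TPM, lay within the siNT range (log2 fold change -1.45, SE 0.72, edgeR adjusted p = 0.223), and IL11 at 3.84, 0.41 and 5.67 TPM against 0.43, 0.77 and 0.37 TPM (log2 fold change 2.42, SE 1.01, edgeR adjusted p = 0.15).

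None of the 9 genes passed in SUM159PT shNRP1#3 (background 1.4%, with 3 at an unadjusted p under 0.05) or shNRP1#5 (background 5.94%, with 2) by edgeR, DESeq2 or limma. Of all 20067 genes tested, 2520 and 3730 had an unadjusted p under 0.05. IL6 was at 153, 205.5 and 58.1 TPM in shNRP1#3 against 60.9, 46.6 and 30.9 TPM in shNT (log2 fold change 1.53, SE 0.72, edgeR adjusted p = 0.396). IL1A was at 5.59, 2.87 and 2.87 TPM in shNRP1#3, above every shNT sample (1.33, 0.52 and 0.47 TPM), and did not pass (log2 fold change 2.13, SE 0.98, edgeR adjusted p = 0.383). CSF2 was at 49.2, 59.9 and 9.08 TPM in shNRP1#5 against 12.7, 12.9 and 5.68 TPM (log2 fold change 1.82, SE 0.70, edgeR adjusted p = 0.159), and IL24 at 0.88, 3.56 and 5.65 TPM against 0.52, 0.28 and 1.18 TPM (log2 fold change 2.12, SE 0.92, edgeR adjusted p = 0.221). These groups overlapped for CSF2 and for IL24.

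In HS578T the calls were upward. With siNRP1#3 (background 4.65%), IL6, IL11, LIF and IL1B rose and no gene of the 9 fell. IL1B went from 0.52, 0.48 and 0.83 TPM in siNT to 34.2, 17.1 and 19.6 TPM (log2 fold change 5.25, SE 0.63, edgeR adjusted p = 0.000253), and IL6 from 8.18, 5.46 and 8.92 TPM to 178, 70.3 and 45.6 TPM (log2 fold change 3.55, SE 0.47, edgeR adjusted p = 0.000464). IL11 was at 131, 67.2 and 145 TPM against 19.8, 21.9 and 24.6 TPM (log2 fold change 2.41, SE 0.38, edgeR adjusted p = 0.00192). Knockdown and control samples did not overlap for these 3 genes, and the 3 calls held without any single sample. LIF was at 42.1, 26.5 and 51.9 TPM against 12.9, 13.3 and 16.8 TPM (log2 fold change 1.38, SE 0.34, edgeR adjusted p = 0.0278), also without overlap, but was called in only 1 of 6 fits without a sample: it was kept without siNRP1#3 replicate 2 and had an adjusted p of 0.0523 to 0.105 without any other. IL1A (0.79, 1.58 and 1.51 TPM, edgeR adjusted p = 0.0903) and CSF2 (6.57, 3.54 and 9.8 TPM, edgeR adjusted p = 0.0822) did not pass, with log2 fold changes of 2.34 (SE 0.76) and 2.52 (SE 0.80). Both lay above every siNT sample, and both passed in a fit of HS578T without the siNRP1#5 samples (adjusted p = 0.0226 and 0.0329). IL24 and IL6ST had 0.25 (SE 0.64) and -0.22 (SE 0.47).

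MDA-MB-231 marker genes were at 1.66%, 2.79% and 5.24% of the level of that line in these 3 samples. At those shares, the MDA-MB-231 siNT level of IL1B would bring 0.397, 0.669 and 1.25 CPM (counts scaled to a common library size), against 47.8, 22.5 and 25.9 CPM observed. For IL6 the values were 2.85, 4.8 and 9.01 against 132, 51.3 and 32.3 CPM, and for IL11 0.983, 1.66 and 3.11 against 259, 116 and 265 CPM. Of these 3 genes, the amount was the largest part of the observed level for IL6 in replicate 3, at 9.01 of 32.3 CPM. After subtraction of the other lines' share from the counts, IL1B (log2 5.81, adjusted p = 0.0275) and IL11 (log2 2.47, adjusted p = 0.00253) still passed, and IL6 (log2 4.39, adjusted p = 0.0904) and LIF (log2 1.42, adjusted p = 0.0752) did not. For CSF2 the share was 1.84, 3.11 and 5.83 CPM against 4.6, 2.26 and 6.62 CPM observed. The share exceeded the observed level in replicate 2, and the siNT samples were left at 0 after subtraction, so no fold is given for CSF2. IL1A was at 57.9, 20.1 and 43.6 CPM in MDA-MB-231 siNT, against 1.59, 2.93 and 2.92 CPM in HS578T siNRP1#3. At the shares above, the amount would be a sizeable part of the observed IL1A level.

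With siNRP1#5, 4 of the 9 genes passed in HS578T, all higher (background 18.7%). IL6 was at 59.7, 50.9 and 18 TPM (log2 fold change 2.56, SE 0.45, edgeR adjusted p = 0.00136) and IL1B at 5.6, 2.55 and 1.97 TPM (log2 fold change 2.55, SE 0.57, edgeR adjusted p = 0.00645), each above every siNT sample and called without any single sample. IL1A had 4.1, 0.94 and 0.26 TPM (log2 fold change 2.98, SE 0.77, edgeR adjusted p = 0.0137) and CSF2 17.8, 6.87 and 0.98 TPM (log2 fold change 3.00, SE 0.81, edgeR adjusted p = 0.0168), both highest in replicate 1, with replicate 3 inside the siNT range. Without siNRP1#5 replicate 1, IL1A was log2 1.19 (adjusted p = 0.176) and CSF2 1.63 (0.135). IL1A was also lost without siNT replicate 2 (0.0671), and CSF2 without siNT replicate 1 (0.0597) or 2 (0.0768). With limma on TPM, IL1A (0.0588) and CSF2 (0.0519) did not pass. IL6ST (9.64, 26.9 and 24.2 TPM, log2 fold change 1.33, SE 0.48, edgeR adjusted p = 0.0618) and IL11 (37.9, 36.4 and 43.4 TPM, log2 fold change 0.92, SE 0.36, edgeR adjusted p = 0.0856) did not pass.

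In these 3 samples the MDA-MB-231 markers were at 19.5%, 19.9% and 12.7% of their level in that line, and 41 SUM159PT markers at 0.955%, 6.72% and 0.703%. The MDA-MB-231 siNT level of IL6 would bring 33.6, 34.2 and 21.9 CPM at those shares, against 51, 39.4 and 18.6 CPM observed. IL1B would have 4.68, 4.77 and 3.05 against 8.51, 3.09 and 3.12 CPM, and IL1A 7.92, 8.06 and 5.16 against 9.03, 1.7 and 0.62 CPM. CSF2 would have 21.7, 22.1 and 14.1 against 13.5, 4.27 and 0.80 CPM. At the siNT level, the amount exceeded the observed level for CSF2 in all 3 samples and for IL1A in replicates 2 and 3. For IL6 and IL1B it was a large part of it or exceeded it. The amounts depend on the MDA-MB-231 group taken. In MDA-MB-231 siNRP1#5, IL6 was at 34.1, 24.4 and 74.6 CPM, against 183, 146 and 187 CPM in its siNT. CSF2 was also below every siNT sample there, so both amounts would be smaller at that level. IL1A and IL1B overlapped siNT. The subtraction likewise took the siNT level. After subtraction no gene of the 9 passed: IL6 was at log2 0.57, adjusted p = 0.781, IL1B at log2 1.40, adjusted p = 0.459 and IL1A at log2 1.73, adjusted p = 0.387, while CSF2 was left at 0 in both groups. In siNRP1#5, a change in HS578T cells and the presence of MDA-MB-231 RNA cannot be told apart for these 4 genes.

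**Figure D3:**
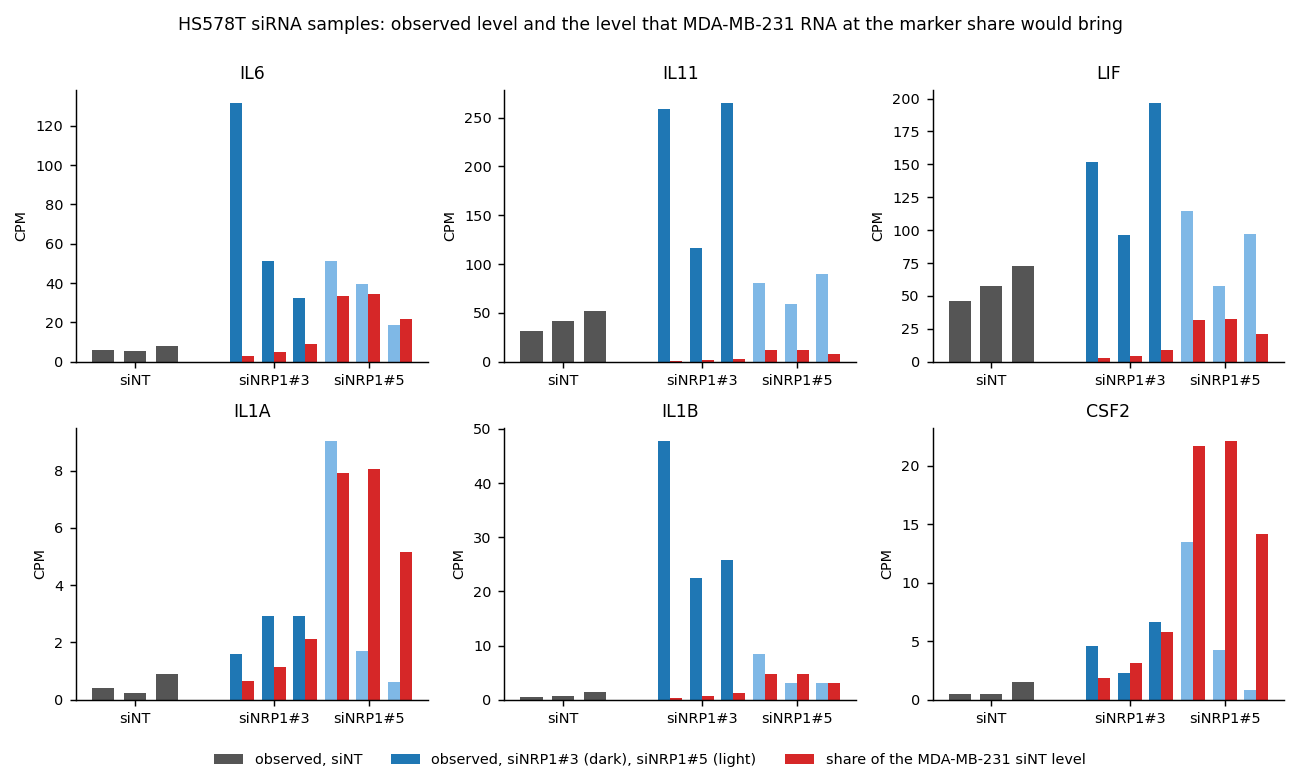
Level in CPM of 6 genes in each HS578T siRNA sample (grey, siNT; dark blue, siNRP1#3; light blue, siNRP1#5) and, in red beside each knockdown sample, the CPM that MDA-MB-231 RNA, at its siNT level and the sample's marker share, would bring. In siNRP1#3 the red bars of IL6, IL11, LIF and IL1B are shorter than the observed bars. In siNRP1#5 those of IL6 and IL1B are close to the observed bars in most samples, and those of CSF2 are taller.

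No gene of the 9 passed in HS578T shNRP1#3 (background 0.0356%) or shNRP1#5 (background 0.946%) by edgeR, DESeq2 or limma, and none had an unadjusted p under 0.05. Of all 19661 genes tested, 1349 and 3777 had such a p. IL6 was at 8.3 and 12.1 TPM in shNRP1#3 and 4.75, 9.55 and 9.79 TPM in shNRP1#5 against 4.11, 5.87 and 6.15 TPM in shNT, with log2 fold changes of 0.82 (SE 0.48) and 0.40 (SE 0.43). IL1B, the gene that rose most with siNRP1#3, was at 0.39 and 0.30 TPM and 0.29, 0.49 and 0.55 TPM against 0.68, 0.30 and 0.12 TPM. IL11 ranged from 12 to 55.2 TPM in shNRP1#5 and overlapped shNT (log2 fold change 0.35, SE 0.36, edgeR adjusted p = 0.592).

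Over the 9 genes, the median log2 fold change was -0.99 in SUM159PT siNRP1#3 and -1.26 in siNRP1#5, 0.50 and -0.76 in MDA-MB-231, and 2.34 and 2.49 in HS578T. The HS578T siNRP1#5 samples held the MDA-MB-231 markers at 12.7% to 19.9% of their level in that line. Those of HS578T siNRP1#3 held them at up to 5.24%. After subtraction at the MDA-MB-231 siNT level, IL6 moved from 2.56 to 0.57 in HS578T siNRP1#5 and no gene of the 9 passed there. IL6 was lower in MDA-MB-231 siNRP1#5, and the smaller amount at that level was not subtracted. With shNRP1#3 and shNRP1#5 the median was 0.53 and 0.38 in SUM159PT, 0.84 and -0.20 in MDA-MB-231, and 0.10 and 0.35 in HS578T. Over all genes tested the medians of these 12 contrasts were -0.01 to 0.03. For shNT against siNT the median of the 9 was -3.67 for SUM159PT, -3.23 for MDA-MB-231 and -0.68 for HS578T. The knockdown contrasts of 1 delivery in 1 line share their control samples.

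Whether the response itself differs between the 3 lines was tested for each siRNA and shRNA with an F test in the fit of all 52 samples. For siNRP1#3, 4 of the 9 genes passed (background 3.42%). IL6 had log2 fold changes of -1.45 (SUM159PT), -0.86 (MDA-MB-231) and 3.55 (HS578T; edgeR adjusted p = 0.000669). IL1B had -0.37, 1.77 and 5.25 in the same order (edgeR adjusted p = 0.00392), LIF -2.46, -0.07 and 1.38 (edgeR adjusted p = 0.0117). CSF3 had -4.18, 1.89 and 1.98 (edgeR adjusted p = 0.0332, and 0.0977 after subtraction of other lines' RNA). Its HS578T value rests on 8, 16 and 14 counts against 3, 1 and 6 in siNT. In SUM159PT the siNT samples spread over 21.5, 143 and 1.48 TPM. IL11, whose log2 fold change was positive in all 3 lines (2.42, 0.80 and 2.41), did not pass (edgeR adjusted p = 0.463).

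For siNRP1#5, IL6, LIF, IL1B, CSF2 and CSF3 passed (background 18.2%), by the F test of the difference. Against siNT, IL6, LIF and IL1B passed lower in SUM159PT, IL6, LIF, CSF2 and CSF3 lower in MDA-MB-231, and IL6, IL1B and CSF2 higher in HS578T. CSF2 (-1.09) and CSF3 (-4.59) in SUM159PT, IL1B (0.64) in MDA-MB-231, and LIF (0.65) and CSF3 (2.49) in HS578T did not pass. CSF3 had 43, 9 and 1 counts in HS578T siNRP1#5 against 3, 1 and 6 in siNT. IL6 had -2.69, -1.95 and 2.56 on the log2 scale in SUM159PT, MDA-MB-231 and HS578T (edgeR adjusted p = 9.12e-05). The HS578T samples are those with the MDA-MB-231 marker share given above. After subtraction at the MDA-MB-231 siNT level, IL6 (adjusted p = 0.213), IL1B (0.105), CSF2 (0.843) and CSF3 (0.926) no longer passed, and LIF did (adjusted p = 0.014). IL6, CSF2 and CSF3 were lower in MDA-MB-231 siNRP1#5, so subtraction at that level would take less from them. No gene of the 9 passed for shNRP1#3 (background 0.747%) or shNRP1#5 (background 3.81%) by edgeR or DESeq2, with 2 at an unadjusted p under 0.05 in each. Of all 23416 genes tested, 1518 and 3941 had such a p.

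**Figure D4:**
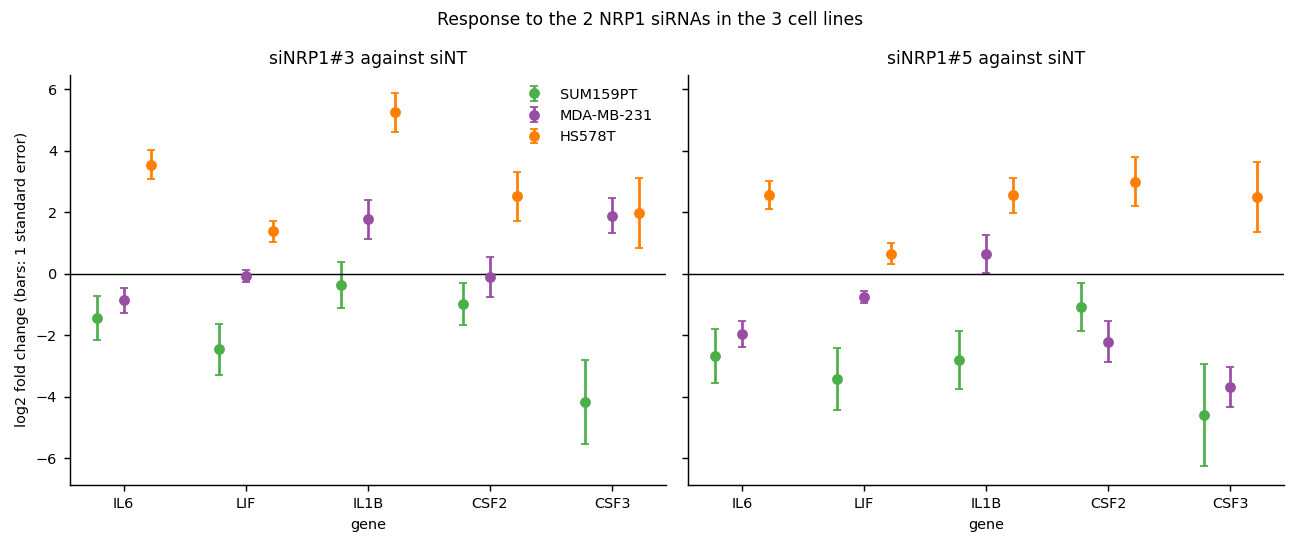
Log2 fold change against siNT, with bars of 1 standard error, of the 5 genes whose response to at least 1 siRNA differed between lines, for siNRP1#3 (left) and siNRP1#5 (right) in each cell line. The HS578T points of IL6, LIF and IL1B lie above 0 in both panels, and the SUM159PT points of all 5 genes lie below it. The HS578T values of CSF3 rest on few counts.

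The #5 sequence was given both as siRNA and as shRNA, so the 2 responses could be compared within a line. In MDA-MB-231 they differed for 2 genes (background 23.7%). IL11 fell with siNRP1#5 (-0.94) and rose with shNRP1#5 (0.63), a difference of -1.58 (SE 0.27, edgeR adjusted p = 0.000361). CSF3 differed by -3.62 (SE 1.06, edgeR adjusted p = 0.0245), but at shNT levels of 0.94, 0.27 and 0.28 TPM, and not without shNRP1#5 replicate 1 (log2 -2.64, adjusted p = 0.186), shNT replicate 2 (0.0585) or 3 (0.0609), or siNT replicate 1 (0.0557). IL24 rose with both, and the difference was -0.22 (SE 0.59, edgeR adjusted p = 0.826). No gene passed in SUM159PT (background 2.51%) or HS578T (background 0.854%) with edgeR or limma, with 4 and 3 genes at an unadjusted p under 0.05. Over all genes tested, 4117 of 20067 and 2522 of 19661 had such a p. DESeq2 called 1 gene in SUM159PT, LIF, and 2 in HS578T, IL6 and IL1B, where it called 1577 of 18105 and 618 of 19252 genes.

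Receptors and signalling genes of these pathways were read from a list of 55 genes (15 other ligands and antagonists, 15 receptors, 14 signalling genes and 11 feedback regulators), of which 47 were tested in SUM159PT, the same number in HS578T and 43 in MDA-MB-231. Each count is given with the share of all genes tested that passed in either direction. In MDA-MB-231 siNRP1#5, 8 passed higher and 11 lower (background 29.4%), in siNRP1#3 1 and 10 (25.7%), in shNRP1#5 1 and 13 (20.7%), and in shNRP1#3 none and 4 (3.65%). SUM159PT siNRP1#5 had 1 higher and 16 lower (17.9%), siNRP1#3 2 and 9 (8.66%), shNRP1#5 2 and 3 (5.94%), and shNRP1#3 none and 1 (1.4%). In HS578T the counts were 7 higher and 3 lower in siNRP1#5 (18.7%) and 1 and 5 in siNRP1#3 (4.65%). The MDA-MB-231 marker share was 12.7% to 19.9% in those siNRP1#5 samples and 1.66% to 5.24% in those of siNRP1#3, and its part in these counts was not tested. Both HS578T shRNA contrasts had 0 by edgeR or limma (0.0356% in shNRP1#3 and 0.946% in shNRP1#5). At an unadjusted p under 0.05 these had 4 (shNRP1#3) and 10 (shNRP1#5), where 1349 and 3777 of all 19661 genes tested had such a p. DESeq2 called 0 and 4, with 146 of 17730 and 1009 of 16206 genes called.

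IL6R, the ligand-binding IL-6 receptor, rose with both #5 sequences and fell with siNRP1#3 in MDA-MB-231 and SUM159PT. In MDA-MB-231 it was at 8.88 ± 1.06 TPM (SD, n = 3) in siNRP1#5 against 2.94 ± 0.408 TPM in siNT (log2 fold change 1.81, SE 0.16, edgeR adjusted p = 8.40e-08) and at 4.92 ± 0.219 TPM in shNRP1#5 against 1.81 ± 0.177 TPM in shNT (log2 fold change 1.50, SE 0.16, edgeR adjusted p = 6.26e-06). With siNRP1#3 it fell to 1.23 ± 0.291 TPM (log2 fold change -1.19, SE 0.16, edgeR adjusted p = 2.63e-05). In SUM159PT it had log2 fold changes of 1.04 (SE 0.32) in siNRP1#5, 1.52 (SE 0.29) in shNRP1#5 and -1.95 (SE 0.30) in siNRP1#3, all past the threshold. With shNRP1#3 the means were above that of shNT: in SUM159PT it was at 11.2 ± 2.53 TPM against 5.38 ± 0.179 TPM in shNT, with every knockdown sample above every control (log2 fold change 1.02, SE 0.29, edgeR adjusted p = 0.107), and in MDA-MB-231 at 2.04 ± 0.329 TPM against 1.81 ± 0.177 TPM (log2 fold change 0.12, SE 0.16, edgeR adjusted p = 0.779), and neither passed. The siNRP1#5 call in SUM159PT was lost without siNRP1#5 replicate 3 (log2 0.13, adjusted p = 0.808), siNT replicate 1 (0.0888) or siNT replicate 2 (0.0656), in a fit of the 2 compared groups alone (0.231) and with limma on TPM (0.312), and the other IL6R calls named here held without any single sample. In MDA-MB-231 CASP1, the protease that processes IL-1 beta, fell with both siRNAs, from 11.5 ± 1.58 TPM to 3.16 ± 0.578 TPM (log2 fold change -1.78, SE 0.17, edgeR adjusted p = 6.93e-07) and 2.81 ± 0.46 TPM (log2 fold change -1.76, SE 0.17, edgeR adjusted p = 3.91e-07). It fell with shNRP1#5 as well (log2 fold change -0.96, SE 0.16). LIFR, the LIF receptor, was lower in MDA-MB-231 siNRP1#3 (0.947 ± 0.0764 TPM against 3.23 ± 0.711 TPM, log2 fold change -1.95, SE 0.20, edgeR adjusted p = 1.53e-06). These calls of CASP1 and LIFR held without any single sample.

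In SUM159PT, IL1RN, which encodes the IL-1 receptor antagonist, was low throughout, at 0.897 ± 0.663 TPM in siNT (SD, n = 3) and 0.175 ± 0.163 TPM in siNRP1#5 (n = 2; log2 fold change -2.73, SE 0.89, edgeR adjusted p = 0.0443). It was 0.443 ± 0.231 TPM in shNT and 0.040 ± 0.020 TPM in shNRP1#5 (log2 fold change -3.23, SE 0.88, edgeR adjusted p = 0.0375). IL22RA1, a subunit of IL-24 receptors, fell with both #5 sequences in SUM159PT (log2 fold change -1.95, SE 0.53, edgeR adjusted p = 0.0185 for siNRP1#5 and log2 fold change -1.89, SE 0.45, edgeR adjusted p = 0.0187 for shNRP1#5). It also fell in MDA-MB-231 siNRP1#5 (log2 fold change -1.59, SE 0.26, edgeR adjusted p = 0.000134), where it was below 1 TPM and IL24 itself rose. The IL1RN calls rested on few counts: that of shNRP1#5 was lost in each fit without a sample (adjusted p 0.0509 to 0.174), and that of siNRP1#5 without siNRP1#5 replicate 3 (0.247), siNT replicate 1 (0.0509) or siNT replicate 2 (0.182) and in a fit of the 2 compared groups alone (0.198). With limma on TPM, IL1RN passed neither in siNRP1#5 (0.0814) nor in shNRP1#5 (0.209). In SUM159PT, IL22RA1 missed the threshold in siNRP1#5 without siNRP1#5 replicate 2 (0.0834) and in a fit of the 2 compared groups alone (0.182), and in shNRP1#5 without shNRP1#5 replicate 2 (0.0893) or 3 (0.0623) or shNT replicate 1 (0.0706) or 2 (0.0579). The MDA-MB-231 call held without any single sample.

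The level of the receptors set beside their ligands differed by line. OSMR, the receptor of oncostatin M, was the highest of the 5 receptors in each siNT group, at 50 ± 14.7 TPM in SUM159PT, 42.7 ± 7.91 TPM in MDA-MB-231 and 52.7 ± 7.64 TPM in HS578T. IL1R1 was at 33.2 ± 8.98 TPM in SUM159PT, 3.78 ± 0.17 TPM in MDA-MB-231 and 16.2 ± 7.25 TPM in HS578T. IL11RA was highest in HS578T (12 ± 1.7 TPM), against 2.69 ± 0.225 TPM in SUM159PT and 3.48 ± 0.205 TPM in MDA-MB-231. LIFR was at 5.07 ± 3.12, 3.23 ± 0.711 and 1.25 ± 0.781 TPM in the same order of lines. These are means ± SD of 3 samples.

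The transcript shares that RSEM estimated show which product of each gene was measured. IL1A and CSF2 have a single annotated transcript. LIF-201 held a median 92.4% of LIF in 52 samples and IL1B-201 91.6% of IL1B in the 46 samples with at least 20 counts. IL11-201 held 64.8% and CSF3-204 72.7%, the latter in 24 samples. IL6 was spread over 3 coding transcripts, IL6-201 with a median of 40.3% (10.8% to 71.5%), IL6-207 with 29.8% and IL6-202 with 14.7%, and IL6-201 was the largest in 42 of 52 samples. IL24-204 (35.6%) and IL24-201 (34.4%) shared first place. IL6ST was divided among 25 transcripts, of which IL6ST-220 held 19.3% and IL6ST-212, a retained-intron transcript, 15.4%. TPM of IL6ST therefore includes transcripts that do not code for the full receptor subunit.

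Among all genes tested in the 3 lines, those most like each gene were found by Pearson's r over the 18 group means, centred within each cell line. The groups share samples of 1 line and their libraries' depth, so r is a description. IL6 was most like PDZK1IP1 (r = 0.918), NFKBIA (r = 0.916) and CSF3 (r = 0.906). NFKBIA, an inhibitor of NF-kB that NF-kB itself induces, also stood among the 3 most like genes of LIF (TNF (r = 0.920), NFKBIA (r = 0.906) and TMEM132A (r = 0.898)) and of CSF3 (CXCL8 (r = 0.919), IL6 (r = 0.906) and NFKBIA (r = 0.893)). IL1B was nearest to KDM6B (r = 0.911), SIK1 (r = 0.903) and RND1 (r = 0.892), and IL1A to SAT1 (r = 0.958), ASB2 (r = 0.930) and DNAJB9 (r = 0.918). For CSF2 these were LCN2 (r = 0.930), RRAD (r = 0.928) and IL6 (r = 0.901), and for IL24 MKNK2 (r = 0.933), AP3S1 (r = 0.930) and FURIN (r = 0.918). IL11 had HIC2 (r = 0.854), ENTPD7 (r = 0.773) and DLL3 (r = 0.762). IL6ST, with ADGRE2 (r = 0.840), SMC2 (r = 0.815) and MOB1A (r = 0.810), stood apart from the ligands, at r of -0.257 to -0.129 with the 8 other genes. IL6, LIF, IL1A, IL1B, CSF2 and CSF3 had r of 0.8 to 0.906 with each other, and IL11 had 0.217 to 0.464 with the other 7 ligands.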

How the data were processed

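RNA of 52 samples in 18 groups was sequenced as stranded, paired-end poly(A) libraries. The submitters' processing notes name FastQC 0.11.9, Trim Galore 0.6.5, STAR 2.7.2b and RSEM 1.3.3, with GRCh38. The deposited gene tables hold RSEM expected counts (not normalized) and TPM, and the deposited isoform table gives each transcript's percent of its gene, all estimated by the authors' run of RSEM. Multi-mapped reads are divided by that model. Levels printed here are the authors' TPM. Expected counts were rounded to whole numbers, filtered with filterByExpr and tested with edgeR 4.0.16 (R 4.3.3; TMM scaling, robust quasi-likelihood fits), with 1 model of the group means per cell line for knockdown contrasts, for shNT against siNT and for the siNRP1#5 against the shNRP1#5 response. Cell lines and the F tests of differing responses used 1 model of all 52 samples. P-values were adjusted by Benjamini-Hochberg over all genes tested, with a threshold of 0.05. The tests were two-sided.

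DESeq2 1.42.0, limma 3.58.1 on log2(TPM + 0.5), RLE scaling, no filter on low counts, fits of the compared groups alone, a replicate block, subtraction of other lines' RNA and leaving out each sample were the alternatives. That subtraction used genes of at least 20 CPM (mean) in the other line and at most 0.5 CPM in each control of the own line. Their median share was multiplied by the other line's mean level in its non-targeting control of the same delivery. The edgeR step was tested on simulated data. Genes named are the 9 genes, NRP1 as a check, up to 3 pathway genes per line that passed in the same direction in at least 2 knockdown contrasts, 5 receptors and the 3 most similar genes. These genes and lists were chosen with earlier results of these data known. Replicate numbers are those of the sample titles. With at least 3 pairs and every same-numbered pair correlated above 0.1 in deviations from the group means, they paired the samples in SUM159PT siNRP1#3 (r 0.212 to 0.379), MDA-MB-231 siNRP1#5 (0.347 to 0.428) and shNRP1#3 (0.1 to 0.157), and HS578T shNRP1#5 (0.251 to 0.688) with their controls. Depth was 25310443 to 72003442 expected counts per sample, and counts of the closest replicate pair differed by 11 times the sampling variance (chi-square per degree of freedom), so no library was counted as a duplicate.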

Additional observations from a re-analysis of the deposited data

Results flagged for a closer look

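Responses that differed between groups by a test of the difference itself were taken up here, each with its edgeR adjusted p. In MDA-MB-231, the response to siNRP1#5 differed from that to shNRP1#5 for IL11 (adjusted p = 0.000361, 3 samples per group, lower with the siRNA and higher with the shRNA in all 3 knockdown samples of each) and for CSF3 (adjusted p = 0.0245). NRP1 itself was at log2 -4.88 with this siRNA and -1.05 with this shRNA against their controls. Between the 3 cell lines, the response to siNRP1#3 differed for IL6 (adjusted p = 0.000669), LIF (adjusted p = 0.0117), IL1B (adjusted p = 0.00392) and CSF3 (adjusted p = 0.0332). The response to siNRP1#5 differed for IL6 (adjusted p = 9.12e-05), LIF (adjusted p = 0.00403), IL1B (adjusted p = 0.00372), CSF2 (adjusted p = 0.00356) and CSF3 (adjusted p = 0.0297). In HS578T siNRP1#5, MDA-MB-231 marker genes stood at 12.7% to 19.9% of their level in that line. LIF alone of these 5 still differed after subtraction at the MDA-MB-231 siNT level (adjusted p = 0.014).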

How the results depend on the processing

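Counts of calls among the 9 genes moved with the filter, with single samples and, where HS578T entered, with the subtraction of other lines' RNA. Without a filter on low counts, calls went from 3 to 21 of 36 tests in SUM159PT knockdowns, from 11 to 26 of 36 in MDA-MB-231 and from 8 to 14 of 36 in HS578T. All-gene calls follow in the order siNRP1#3, siNRP1#5, shNRP1#3, shNRP1#5. SUM159PT went from 1737, 3590, 281 and 1192 of 20067 to 2565, 4008, 831 and 2046 of 40369. MDA-MB-231 went from 4823, 5518, 686 and 3899 of 18800 to 4680, 5496, 1538 and 4077 of 38858. HS578T went from 914, 3667, 7 and 186 of 19661 to 1612, 3930, 252 and 1076 of 40604. The same setting took the difference between siNRP1#5 and shNRP1#5 responses from 2 to 15 of 27 tests and the difference between cell lines from 9 to 23 of 36. Without the filter the former was called for 1457 of 40369 genes in SUM159PT, 4443 of 38858 in MDA-MB-231 and 691 of 40604 in HS578T. The latter was called for 1451, 4240, 804 and 1826 of 47979 genes, in the order given. The cause was not tested. In SUM159PT, DESeq2 gave 6 knockdown calls and fits of the compared groups alone gave 0. In the same order of contrasts, DESeq2 called 2678 of 19271, 4591 of 18493, 733 of 18882 and 1762 of 20050 genes. The fits of the compared groups called 1080 of 17630, 59 of 17752, 488 of 17503 and 1136 of 17606. DESeq2 gave 6 calls for the siRNA against shRNA difference. There it called 1577 of 18105 genes in SUM159PT, 4913 of 18794 in MDA-MB-231 and 618 of 19252 in HS578T. Subtracting other lines' RNA left 3 calls in HS578T, 1 of them CSF2 in siNRP1#3 against siNT samples at 0, and 4 for the difference between cell lines. Over all genes it left 621, 2849, 2 and 59 of 19408 in HS578T, and 416, 2423, 47 and 643 of 23433 for that difference. With each sample left out in turn, SUM159PT knockdown calls ranged from 0 (without siNRP1#5 replicate 3) to 6 (without siNT replicate 3), HS578T calls from 5 (without siNT replicate 2) to 8, shNT against siNT calls from 10 (without SUM159PT shNT replicate 3) to 17, where the count with all samples was 16, and the siRNA against shRNA difference from 1 (without MDA-MB-231 shNT replicate 2 or 3 or siNT replicate 1) to 4 (without MDA-MB-231 siNRP1#5 replicate 1). SUM159PT knockdowns had 1 call without siNT replicate 2. The cell line calls in NT controls, 21 of 27, stayed at 21 to 24 in all alternatives. RLE scaling gave the same counts as TMM for all 7 groups of tests.

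With the replicate number as a block, the siRNA against shRNA difference had 4 calls. Over all genes this setting called 1016 of 20067 in SUM159PT, 4707 of 18800 in MDA-MB-231 and 238 of 19661 in HS578T. Where the numbers did not pair the samples, the block added calls for CSF3 in SUM159PT siNRP1#5 (log2 -4.43, adjusted p = 0.0136), for IL1B in MDA-MB-231 siNRP1#3 (1.83, adjusted p = 0.0264) and shNRP1#5 (-2.11, adjusted p = 0.0228), and for the siRNA against shRNA difference of IL1B in MDA-MB-231 (2.71, adjusted p = 0.0259) and IL6 in SUM159PT (-2.88, adjusted p = 0.039). Beside these and IL6ST in MDA-MB-231 siNRP1#5 (-0.55, adjusted p = 0.0488), the replicate block changed no call among the 9 genes. Defining markers by the mean of the controls, an alternative chosen after seeing the data, put MDA-MB-231 markers (60 genes) at 12.9% to 23% of their level in HS578T siNRP1#5 and 2.43% to 7.13% in siNRP1#3. Few counts limit the comparison of the HS578T controls for IL1A (46 over siNT and 5 over shNT) and CSF3 (10 and 0). Leaving out samples was not run for the difference between cell lines.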
